A study of Homo sapiens with 6 samples.

Results

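The circadian clock genes are 10 named genes of the deposited expression table, which holds 58735 genes in all: the period genes PER1, PER2 and PER3, the cryptochrome genes CRY1 and CRY2, the activator genes ARNTL and CLOCK, the nuclear receptor genes NR1D1 and NR1D2, and BHLHE40. They were chosen by gene name, with earlier results of these data known, and each name matched 1 gene ID. The cells were HEY, an established line from a human ovarian cancer, grown with serum. They carried an empty vector (Vector, 3 libraries) or a plasmid for overexpression of CSGALNACT2, a Golgi enzyme of chondroitin sulfate synthesis (oeCSGALNACT2, 3 libraries). The study describes the cells both as transfected and as stably overexpressing, the titles of the treated samples name CSGALNACT1 while their descriptions name CSGALNACT2, and neither the hour of harvest nor any step to synchronize the cells is given in the sources used here. No source states that a group's libraries stem from separate cultures, so every p-value here reflects library-to-library spread that may be technical.

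The mammalian clock is a transcriptional feedback loop. The proteins of CLOCK and ARNTL, also called BMAL1, bind E-box elements as a dimer and activate the period and cryptochrome genes, whose proteins return to the nucleus and inhibit the dimer. In a further loop the same dimer activates NR1D1 and NR1D2, which encode the heme-binding repressors REV-ERBα and REV-ERBβ, and these repress ARNTL at ROR elements. BHLHE40, also called DEC1, competes with the dimer for E-boxes. The loop runs in most cultured cells, but the phase differs from cell to cell unless a stimulus such as serum or a glucocorticoid aligns it, so a bulk library gives the mean over phases.

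In the oeCSGALNACT2 libraries, NR1D1, NR1D2, PER1, PER2 and ARNTL lay below all Vector libraries, NR1D1 by 4.46-fold, PER1 by 3.57-fold, PER2 and NR1D2 each by 2.41-fold and ARNTL by 1.48-fold on the group means (n = 3 libraries each). Of all genes tested, 12.8% lay below without overlap in this way. PER3 was 1.12-fold lower, also without overlap between the groups. CRY1 and CRY2 were 1.30-fold and 1.38-fold lower with overlapping groups, while CLOCK and BHLHE40 were slightly higher with overlapping groups. Levels are FPKM, read counts scaled by the length of the gene and the depth of the library. They were compared with limma on log2(FPKM + 1), a scale that shrinks the changes of low genes. The test covered 11479 genes whose mean reached 1 FPKM, with Benjamini-Hochberg adjustment over all of them and a threshold of 0.05. PER3, with a mean below 1 FPKM, was the only member left out by this filter.

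None of the 9 tested clock genes passed in limma, in which 1.35% of all tested genes were called. At an unadjusted p under 0.05, 5 of them were lower and none higher, against 9.26% and 7.8% of all tested genes. None of the 10 passed in edgeR on reads recovered from the FPKM values, in which 0.971% of genes were called and 5 of the 10 were lower at an unadjusted p under 0.05, as were 8.35% of all genes in that fit. DESeq2 on the same reads called NR1D1, NR1D2 and PER1 lower (3 of 10 clock genes, against 2.59% of all genes called lower). With the replicate number as a block, limma called 6 of 9 lower and none higher, but in that fit 43.7% of all tested genes were called, and 22.5% were called lower. The 6 were NR1D1, NR1D2, PER1, PER2, CRY1 and ARNTL. The same 6 were called lower by edgeR with the block (20.1% of genes lower) and by limma in replicates 2 and 3 alone (21.4% lower), and edgeR without a filter called NR1D1 and NR1D2 (0.808% lower). A median log2 fold change of -0.41 over the 9 clock genes stood beside -0.01 over all tested genes. The clock genes and the lists below were chosen with earlier results known, so these contrasts with all tested genes only describe them.

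**Figure D1:**
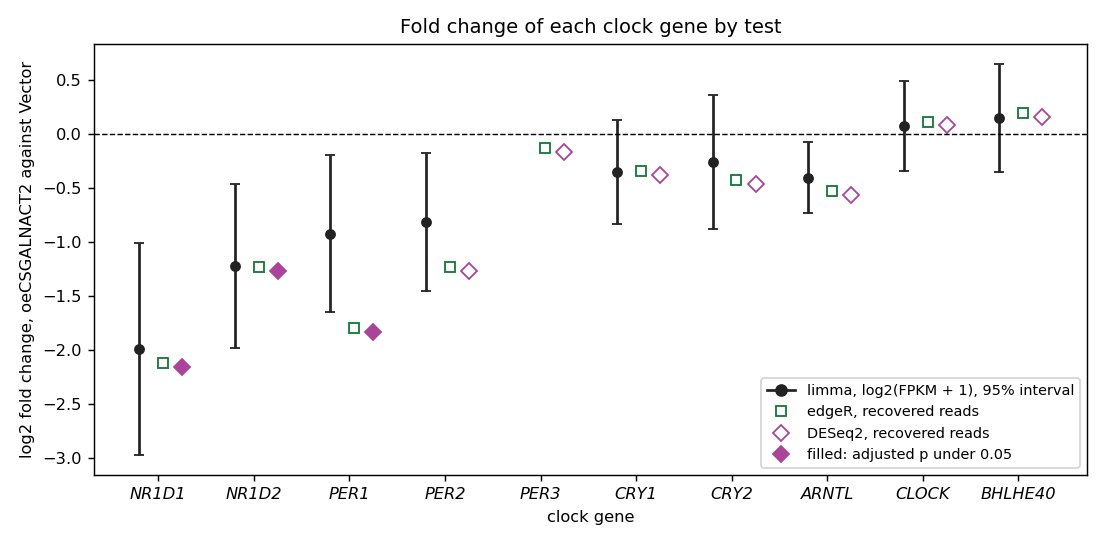
Log2 fold change (oeCSGALNACT2 against Vector, vertical axis) of each clock gene in 3 tests: limma with its 95% interval, edgeR and DESeq2, filled where the adjusted p was under 0.05. NR1D1 lay lowest in all 3, and DESeq2 alone called NR1D1, NR1D2 and PER1; PER3 has no limma value.

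The targeted gene fitted the sample descriptions: CSGALNACT2 had 15.3, 8.18 and 8.13 FPKM in Vector and 534, 453 and 409 FPKM in oeCSGALNACT2 replicates 1, 2 and 3. The libraries held 15628834 to 18186682 recovered reads, of which the 10 clock genes took 55729 in total. In both groups replicate 1 was unlike the other two, with r across genes of 0.913 between Vector replicates 1 and 2 against 0.991 between Vector replicates 2 and 3 (Pearson). The mitochondrial share of reads was 2.77% to 3.61% in Vector and 4.60% to 4.82% in oeCSGALNACT2 libraries, and the part of this difference in the results was not tested. The ovarian lineage factor PAX8 was present in all libraries (23.7 to 58.5 FPKM), while MUC16 was listed at or near 0. WT1 was higher in oeCSGALNACT2 libraries without overlap (1.92 against 1.15 FPKM on the group means), and SOX17 overlapped. The summed level of 6 epithelial markers was 152 to 268 FPKM in Vector and 306 to 517 FPKM in oeCSGALNACT2 libraries, with CDH1 at or near 0. Only KRT8 and KRT18 were higher without overlap, while KRT7, KRT19 and EPCAM overlapped. The sum of 3 mesenchymal markers was 2652 to 3137 FPKM in Vector and 2065 to 2855 FPKM in oeCSGALNACT2 libraries, with overlap. Of 2 leukocyte markers none reached 1 FPKM in any library. Of 2 endothelial markers, PECAM1 stayed below 1 FPKM, and the sum, carried by CDH5, was 19.7 to 30.7 FPKM in Vector and 6.25 to 10.3 FPKM in oeCSGALNACT2 libraries, without overlap, as for the clock genes that were lower. The part of these marker differences was not tested either. In bulk libraries fewer cells with a transcript and less of it per cell cannot be told apart.

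The nuclear receptor pair had the highest mean levels of the clock genes in Vector cells. NR1D1 (ENSG00000126368, chr17:40092787-40100725 on GRCh38, minus strand) had 17.2, 38.9 and 37.0 FPKM in Vector and 3.86, 8.58 and 8.42 FPKM in oeCSGALNACT2 replicates 1, 2 and 3, from 786, 1945, 1735, 174, 405 and 427 reads. In both groups replicate 1 was the lowest, and the highest oeCSGALNACT2 library lay below the lowest Vector library. Limma put its log2 fold change at -1.99 (SE 0.41, adjusted p = 0.0745), with adjusted p = 0.000244 from limma with the block and 5.36e-05 from DESeq2. NR1D2 (ENSG00000174738, chr3:23945260-23980618, plus strand) had 84.1, 52.8 and 45.4 FPKM in Vector and 34.6, 20.2 and 21.0 FPKM in oeCSGALNACT2 replicates 1, 2 and 3, from 2000 to 8052 reads a library. Here replicate 1 was the highest of each group, opposite to NR1D1, and the groups again did not overlap. Limma gave -1.23 for NR1D2 on the log2 scale (SE 0.31, adjusted p = 0.123), with 0.00066 with the block in limma and 0.0138 from DESeq2. For each of these genes an exact two-sided permutation test of the FPKM values gave p = 0.1, the smallest that 3 libraries against 3 allow.

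Exons of NR1D1 share 263 of their 2772 bases with THRA, the thyroid hormone receptor α gene on the other strand, and the counting is not stated to use strand. THRA had 3.60 to 7.02 FPKM in Vector and 3.31 to 8.02 FPKM in oeCSGALNACT2 libraries, with a log2 fold change of 0.07 (adjusted p = 0.954 from limma). The THRA levels overlapped between the groups, and the part of shared bases in the NR1D1 values was not tested.

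The start regions of NR1D1 and NR1D2 are shown because both transcripts were lower and because E-boxes are where the CLOCK and ARNTL dimer binds. Sequences are from RefSeq on GRCh38.p14, from 250 bases before to 30 bases after the annotated start, at chr17:40100560-40100839 (minus strand) and, for 1 of the 2 listed starts of NR1D2, chr3:23945871-23946150 (plus strand). Capitals mark, on either strand, an E-box (CACGTG), its variant the E′-box (CACGTT) or a D-box (TTANGTAA), the site of the PAR bZIP factors and of NFIL3.
NR1D1: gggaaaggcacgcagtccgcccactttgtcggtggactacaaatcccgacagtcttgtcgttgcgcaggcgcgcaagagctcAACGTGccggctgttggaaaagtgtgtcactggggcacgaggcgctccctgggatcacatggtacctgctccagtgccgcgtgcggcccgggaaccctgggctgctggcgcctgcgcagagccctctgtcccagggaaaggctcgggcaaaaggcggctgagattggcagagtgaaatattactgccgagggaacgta
NR1D2: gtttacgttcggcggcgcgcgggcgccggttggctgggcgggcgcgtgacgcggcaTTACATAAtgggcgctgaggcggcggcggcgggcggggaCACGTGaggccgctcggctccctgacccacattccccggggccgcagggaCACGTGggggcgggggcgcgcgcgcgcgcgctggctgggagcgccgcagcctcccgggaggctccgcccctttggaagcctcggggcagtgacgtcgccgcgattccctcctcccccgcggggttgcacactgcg
NR1D1 held an E′-box, read as AACGTG, that begins 168 bases before the start. NR1D2 held E-boxes that begin 155 and 105 bases before this start. It also held a D-box, read as TTACATAA, that begins 194 bases before this start, and no match at its other listed start.

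**Figure D2:**
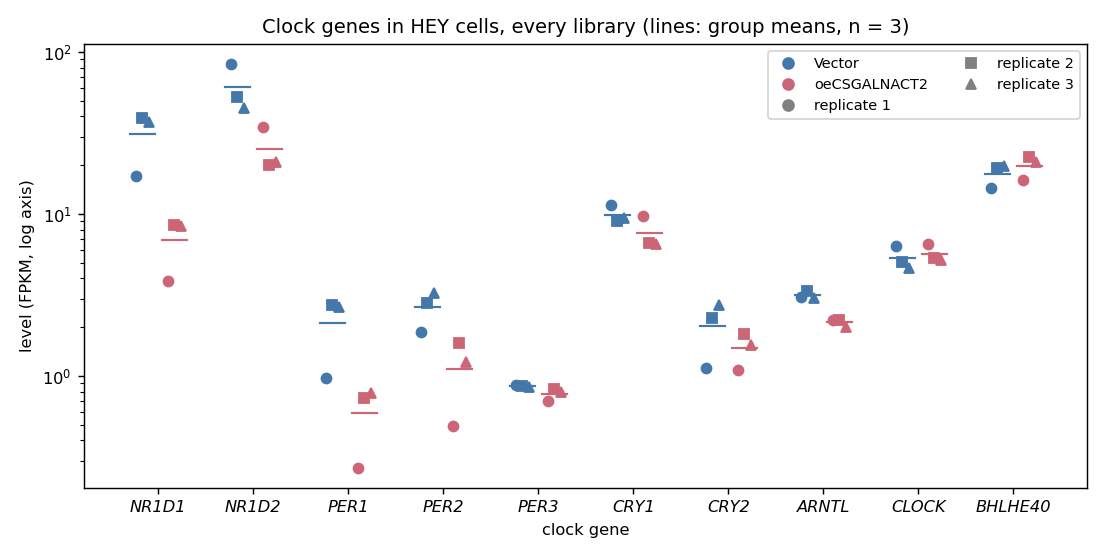
Level of each clock gene (FPKM, log axis) in each of the 3 Vector (blue) and 3 oeCSGALNACT2 (red) libraries, with the shape giving the replicate number and the line the group mean. NR1D1, NR1D2, PER1, PER2, PER3 and ARNTL do not overlap between the groups.

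Among the period genes, whose proteins form the inhibitory arm with the cryptochromes, PER1 and PER2 were lower and PER3 differed little. PER1 (ENSG00000179094, chr17:8140472-8156506, minus strand) had 0.973, 2.74 and 2.66 FPKM in Vector and 0.272, 0.730 and 0.781 FPKM in oeCSGALNACT2 replicates 1, 2 and 3. These values rest on 112, 346 and 315 reads against 31, 87 and 100 reads. All oeCSGALNACT2 libraries were below all Vector libraries, by a small margin between Vector replicate 1 and oeCSGALNACT2 replicate 3. On the scale of limma PER1 differed by -0.93 (log2, SE 0.30, adjusted p = 0.192, or 0.00817 with the block), and DESeq2 on recovered reads gave -1.84 (adjusted p = 0.0136). PER2 (ENSG00000132326, chr2:238244038-238290102, minus strand) had 1.87, 2.84 and 3.25 FPKM in Vector and 0.491, 1.59 and 1.22 FPKM in oeCSGALNACT2 replicates 1, 2 and 3. Replicate 1 was again the lowest of each group and the groups did not overlap. In limma its log2 fold change was -0.82 (SE 0.27, adjusted p = 0.195, or 0.00718 with the block), and DESeq2 gave -1.27 (adjusted p = 0.0903). PER3 (ENSG00000049246, chr1:7784320-7845177, plus strand) had 0.886, 0.869 and 0.861 FPKM in Vector and 0.705, 0.827 and 0.797 FPKM in oeCSGALNACT2 replicates 1, 2 and 3. Its difference on the log2(FPKM + 1) scale was -0.08, with adjusted p = 0.827 from edgeR and 0.891 from DESeq2 on recovered reads. For PER3 the gap between the groups was narrow, and its exons share 868 of 8099 bases with UTS2 on the other strand, which was listed at or near 0 in all libraries.

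The regions around the starts of PER1 (chr17:8152375-8152654) and PER2 (chr2:238288581-238288860, both on the minus strand) are given for the same reason as those of the receptors, with the same marks.
PER1: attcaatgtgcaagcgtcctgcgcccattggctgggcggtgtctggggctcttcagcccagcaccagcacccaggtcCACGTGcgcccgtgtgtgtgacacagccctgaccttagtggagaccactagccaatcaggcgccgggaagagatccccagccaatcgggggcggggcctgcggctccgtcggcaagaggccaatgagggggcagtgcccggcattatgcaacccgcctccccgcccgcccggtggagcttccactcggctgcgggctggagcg
PER2: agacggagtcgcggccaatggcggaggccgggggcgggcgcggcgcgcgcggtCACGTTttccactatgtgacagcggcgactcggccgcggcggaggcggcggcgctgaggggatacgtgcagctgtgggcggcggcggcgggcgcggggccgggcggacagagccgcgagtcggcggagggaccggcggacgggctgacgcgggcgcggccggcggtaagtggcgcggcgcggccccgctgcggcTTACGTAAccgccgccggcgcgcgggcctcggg
PER1 held an E-box that begins 173 bases before the start. PER2 held an E′-box that begins 197 bases before the start and a D-box, TTACGTAA, that begins 3 bases before it. Over the 15 windows of 300 bases that RefSeq lists for the 10 clock genes, 3 held an E-box, 5 an E′-box and 3 a D-box, whereas of 35116 such windows of all genes 7.26% held an E-box, 5.34% an E′-box and 2.18% a D-box on either strand. BHLHE40 had an E-box and CLOCK, CRY1 and CRY2 an E′-box in such a window, so the letters were not limited to the genes that were lower without overlap. ARNTL and PER3, which were lower without overlap, had neither an E-box nor an E′-box in their windows. The full cAMP response element, TGACGTCA, was in none of the 15 windows and in 1.85% of all windows. Such matches are descriptions of the sequence and no evidence of binding.

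The cryptochrome genes encode the main inhibitors of the CLOCK and ARNTL dimer. CRY1 (ENSG00000008405, chr12:106991364-107093829, minus strand) had 11.3, 9.03 and 9.41 FPKM in Vector and 9.71, 6.66 and 6.51 FPKM in oeCSGALNACT2 replicates 1, 2 and 3. The groups overlapped through oeCSGALNACT2 replicate 1, which lay above Vector replicates 2 and 3. Its log2 fold change was -0.35 (95% interval -0.84 to 0.13, adjusted p = 0.442 from limma), and with the block adjusted p = 0.0181. CRY2 (ENSG00000121671, chr11:45847118-45883248, plus strand) had 1.12, 2.27 and 2.75 FPKM in Vector and 1.09, 1.81 and 1.56 FPKM in oeCSGALNACT2 replicates 1, 2 and 3. Vector replicate 1 lay within the range of the oeCSGALNACT2 libraries. The log2 fold change of CRY2 was -0.26 (95% interval -0.88 to 0.36, adjusted p = 0.674 from limma), and it did not pass with the block either (adjusted p = 0.194). Neither interval leaves out a change of the size measured for ARNTL.

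The activators differed from each other. ARNTL (ENSG00000133794, chr11:13276652-13387266, plus strand) had 3.09, 3.37 and 3.02 FPKM in Vector and 2.20, 2.20 and 2.02 FPKM in oeCSGALNACT2 replicates 1, 2 and 3, from 241 to 409 reads a library. The SDs were 0.184 and 0.107 FPKM, and replicate 1 did not stand apart. By limma the difference was -0.41 on the log2 scale (SE 0.14, adjusted p = 0.205, or 0.0186 with the block), and DESeq2 gave -0.56 (adjusted p = 0.284). CLOCK (ENSG00000134852, chr4:55427903-55547138, minus strand) had 6.39, 5.09 and 4.67 FPKM in Vector and 6.50, 5.37 and 5.19 FPKM in oeCSGALNACT2 replicates 1, 2 and 3. Its groups overlapped almost whole, with a log2 fold change of 0.07 (95% interval -0.35 to 0.49, adjusted p = 0.893 from limma). The sign of this small difference turned to -0.01 without Vector replicate 3 and without oeCSGALNACT2 replicate 1. ARNTL made up 32.6% to 39.8% of the summed FPKM of ARNTL and CLOCK in Vector and 25.3% to 29.1% in oeCSGALNACT2 libraries, without overlap.

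ARNTL is the classic target of both receptor repressors, which act at ROR elements near its start. From RefSeq on GRCh38.p14, the 30 bases at chr11:13277809.0-13277838.0 (plus strand) hold the core TAGGTCA in capitals.
ARNTL: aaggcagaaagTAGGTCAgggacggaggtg
The core begins at base 31 of this transcript start, 1 of 2 listed for the gene. It was in 2 of the 15 windows of the clock genes, the other being in CRY2, and in 1.85% of all windows. The level of NR1D1 relative to ARNTL was 5.58, 11.5 and 12.2 in Vector and 1.75, 3.90 and 4.18 in oeCSGALNACT2 replicates 1, 2 and 3, as a ratio of FPKM. That of NR1D2 relative to ARNTL was 27.2, 15.7 and 15.0 in Vector and 15.7, 9.17 and 10.4 in oeCSGALNACT2 replicates 1, 2 and 3, with overlapping groups. In these libraries both repressor genes and their classic target were lower.

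BHLHE40 (ENSG00000134107, chr3:4979116-4985323, plus strand), the E-box repressor, had 14.4, 19.2 and 19.7 FPKM in Vector and 16.1, 22.5 and 20.8 FPKM in oeCSGALNACT2 replicates 1, 2 and 3. The groups overlapped, with replicate 1 the lowest of each. Its log2 fold change was 0.15 (95% interval -0.35 to 0.65, adjusted p = 0.779 from limma and 0.103 with the block). BHLHE41, its paralog, was lower without overlap, so that BHLHE40 stood at 3.38 to 5.72 times the FPKM of BHLHE41 in Vector and at 6.09 to 11.8 times in oeCSGALNACT2 libraries.

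Ratios between same-numbered libraries set aside the level that differs with the number. The ratio of oeCSGALNACT2 to Vector FPKM for NR1D1 was 0.224, 0.221 and 0.228 in replicates 1, 2 and 3, although its level in Vector ranged from 17.2 to 38.9 FPKM. For PER1 the ratio was 0.280, 0.267 and 0.294, for ARNTL 0.712, 0.653 and 0.667, and for NR1D2 0.412, 0.382 and 0.462. PER2 was the least even of the genes, at 0.262, 0.560 and 0.377, followed by CRY2, at 0.975, 0.797 and 0.567. CRY1 had ratios of 0.857, 0.738 and 0.692 and PER3 ratios of 0.796, 0.952 and 0.926. CLOCK, at 1.02 to 1.11, and BHLHE40, at 1.06 to 1.17, were above 1 in all 3 numbers. Even ratios were common: over all tested genes the 3 log2 ratios spanned a median of 0.275, computed with 1 FPKM added. Without that addition the span was 0.045 for NR1D1, 0.140 for PER1, 0.124 for ARNTL and 0.273 for NR1D2. For CLOCK and BHLHE40, which were not lower, it was 0.129 and 0.147. In all, 8 of the 10 genes were lower in every number, among them PER3, which is not among the tested genes. Of the tested genes, 35.6% were lower and 33.4% higher in every number. Some of these differences were small. PER3 had 118 reads in replicate 3 of both groups, and CRY2 had 114 reads in Vector and 110 in oeCSGALNACT2 replicate 1. That the numbers pair the libraries rests on a correlation in the data and not on the labels, and that correlation set only number 1 apart.

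**Figure D3:**
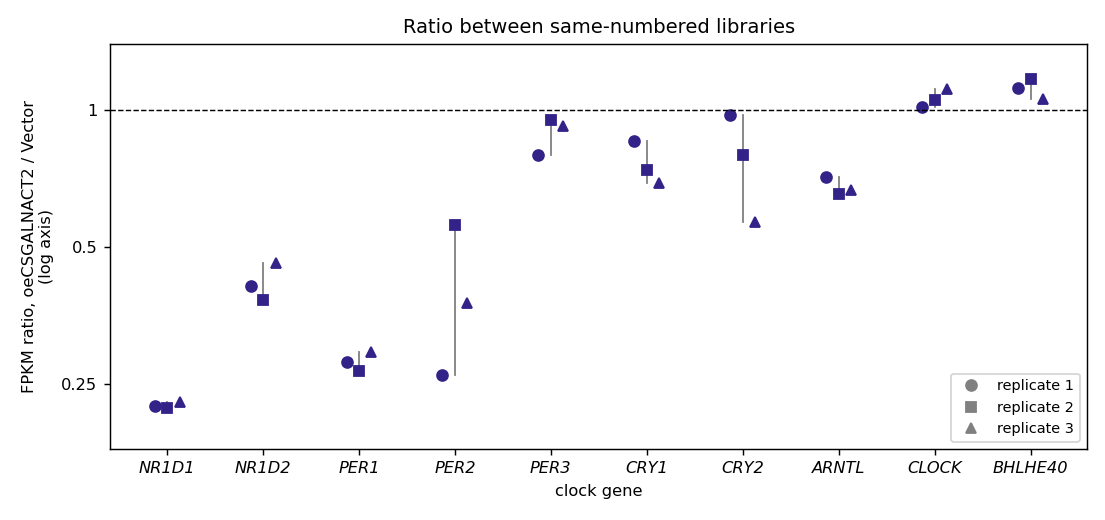
Ratio of oeCSGALNACT2 to Vector FPKM (log axis) for each clock gene between libraries with the same replicate number, with a grey line over the range. NR1D1 lies at 0.221 to 0.228 in the 3 numbers, PER2 spreads from 0.262 to 0.560, and CLOCK and BHLHE40 lie above 1.

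The order of levels differed between the groups. In Vector cells the order by mean FPKM was NR1D2 (60.8), NR1D1 (31.0), BHLHE40 (17.8), CRY1 (9.92), CLOCK (5.38), ARNTL (3.16), PER2 (2.65), PER1 (2.12), CRY2 (2.05) and PER3 (0.872). Neighbours whose libraries overlapped were NR1D1 and BHLHE40, ARNTL and PER2, PER2 and PER1, and PER1 and CRY2. In oeCSGALNACT2 cells NR1D2 (25.2) still led but overlapped with BHLHE40 (19.8), and NR1D1 (6.95) came after CRY1 (7.63), with which it overlapped, and ahead of CLOCK (5.69), with which it also overlapped. PER1 (0.594) stood at the end of the order, below PER3 (0.776), although their libraries overlapped. The summed FPKM of the receptor pair was 82.4 to 101 in Vector and 28.8 to 38.5 in oeCSGALNACT2 libraries, that of the 3 period genes 3.73 to 6.77 and 1.47 to 3.15, and that of the cryptochromes 11.3 to 12.4 and 8.08 to 10.8. In each of these sums the groups did not overlap. PER3 made up 12.7% to 23.7% of the period sum in Vector and 26.3% to 48.0% in oeCSGALNACT2 libraries, also without overlap. The share of NR1D1 in the receptor sum (17.0% to 44.9% and 10.0% to 29.8%) and that of CRY1 in the cryptochrome sum (77.4% to 91.0% and 78.6% to 89.9%) overlapped.

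Of 12 paralogs and other factors of the loop, 6 were tested and none passed in limma (2 lower and none higher at an unadjusted p under 0.05, 4 lower and 1 higher with the block). EdgeR tested 9 of the list and called none. DESeq2 tested 10 and called 2 lower, NFIL3 and RORB, and RORB was not among the 6 tested in limma. Of all genes, 9.26% were lower at an unadjusted p under 0.05 in limma and 2.59% were called lower in DESeq2. With the block, limma called 43.7% of all tested genes, and 22.5% lower. The median log2 fold change of the 6 loop factors tested in limma was -0.41. NFIL3, a bZIP repressor of D-box genes, had 24.8, 18.1 and 18.8 FPKM in Vector and 11.0, 7.92 and 7.79 FPKM in oeCSGALNACT2 replicates 1, 2 and 3, a log2 fold change of -1.13 (adjusted p = 0.0621 from limma, 0.00411 from DESeq2). BHLHE41 was lower at 2.37 ± 0.526 against 3.71 ± 0.468 FPKM (SD, n = 3 libraries each, adjusted p = 0.24 from limma). NPAS2, which can replace CLOCK, stood at 5.54 against 7.75 FPKM and the PAR bZIP gene TEF at 3.87 against 5.44 FPKM, both with overlapping groups. The genes of this list not tested in limma had a mean below 1 FPKM, and among them HLF was listed at 0 in all libraries. Named after its values were seen, RORB, an activator at ROR elements, was called lower by DESeq2 (0.0704 against 0.309 FPKM, adjusted p = 0.00805).

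Of 24 kinases, phosphatases and ubiquitin ligases that act on clock proteins, 23 were tested and none passed in limma (4 lower and none higher at an unadjusted p under 0.05, none in edgeR or DESeq2, 9 lower and 4 higher with the block), with a median log2 fold change of -0.14. Of all tested genes, 9.26% were lower at that unadjusted threshold in limma, and 43.7% were called with the block. CSNK2A1, the catalytic α subunit of casein kinase 2, had 8.39, 8.47 and 7.96 FPKM in Vector and 5.92, 5.21 and 4.93 FPKM in oeCSGALNACT2 replicates 1, 2 and 3 (log2 fold change -0.55, adjusted p = 0.129 from limma). CSNK1A1 differed by -0.44 on the log2 scale (adjusted p = 0.2 from limma) and CSNK1E, a period kinase, by -0.85 (adjusted p = 0.278 from limma, 0.00116 with the block), the latter with overlapping groups. SIAH2, a ubiquitin ligase that acts on the NR1D proteins, had a log2 fold change of -0.38 (adjusted p = 0.274 from limma).

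Of 18 coregulators of the loop, 16 were tested and none passed in limma (3 higher and none lower at an unadjusted p under 0.05, none in edgeR, 2 higher in DESeq2, 4 higher and 3 lower with the block), with a median of 0.01. Of all tested genes, 7.8% were higher at that unadjusted threshold in limma. DESeq2, with all 18 coregulators tested, called 731 of 16114 genes in either direction, and 418 of these genes were lower. With the block 43.7% of all tested genes were called, near the share of the coregulators. THRAP3, a coactivator of the CLOCK and ARNTL dimer, had 15.5, 17.6 and 17.7 FPKM in Vector and 29.9, 35.8 and 37.0 FPKM in oeCSGALNACT2 replicates 1, 2 and 3. Its log2 fold change was 0.97 (adjusted p = 0.0527 from limma, 0.00376 from DESeq2). SFPQ, a splicing factor found in period protein complexes, had 34.5 ± 1.82 FPKM in Vector and 63.3 ± 2.29 FPKM in oeCSGALNACT2 cells (SD, n = 3 libraries each), a log2 fold change of 0.86 (adjusted p = 0.0527 from limma, 0.00825 from DESeq2). CIPC, a CLOCK-interacting repressor, had 4.89 against 2.93 FPKM and WDR5, a subunit of histone methyltransferase complexes, 31.5 against 23.5 FPKM, with no overlap but adjusted p of 0.202 and 0.35 from limma. For 5 of the 16 coregulators the oeCSGALNACT2 libraries were all above the Vector libraries, and for none all below, where 11.2% of all tested genes lay above and 12.8% below. For the 9 tested clock genes the counts were none above and 5 below.

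Of 12 genes known as outputs of the clock, 11 were tested, and KLF9 and TSC22D3 fell in limma while none rose (2 of 11, against 0.845% of all genes called lower; 2 and none in edgeR, 3 and none in DESeq2, 6 and 2 with the block). KLF9, a zinc finger repressor with E-box and glucocorticoid inputs, fell from 13.8, 10.2 and 10.0 FPKM in Vector to 2.47, 2.50 and 2.72 FPKM in oeCSGALNACT2 replicates 1, 2 and 3 (log2 fold change -1.78, SE 0.17, adjusted p = 0.0141 from limma). TSC22D3, which encodes the glucocorticoid-induced leucine zipper protein GILZ, fell from 7.31, 8.92 and 9.33 FPKM to 3.52, 2.74 and 2.74 FPKM (log2 fold change -1.25, SE 0.17, adjusted p = 0.0312 from limma). Neither call held without Vector replicate 2, Vector replicate 3, oeCSGALNACT2 replicate 2 or oeCSGALNACT2 replicate 3, each of which left 0 of the 11 genes called. NAMPT, the rate-limiting enzyme of NAD salvage and a target of the CLOCK and ARNTL dimer, had 109, 62.1 and 56.7 FPKM in Vector and 25.8, 14.2 and 13.2 FPKM in oeCSGALNACT2 replicates 1, 2 and 3. The log2 fold change of NAMPT was -2.04 (adjusted p = 0.0544 from limma, 9.47e-06 from DESeq2). KLF10 stood at 35.8 against 20.7 FPKM (log2 fold change -0.77, adjusted p = 0.151 from limma), without overlap. The list had a median of -0.25. With the block, limma called 43.7% of all tested genes.

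**Figure D4:**
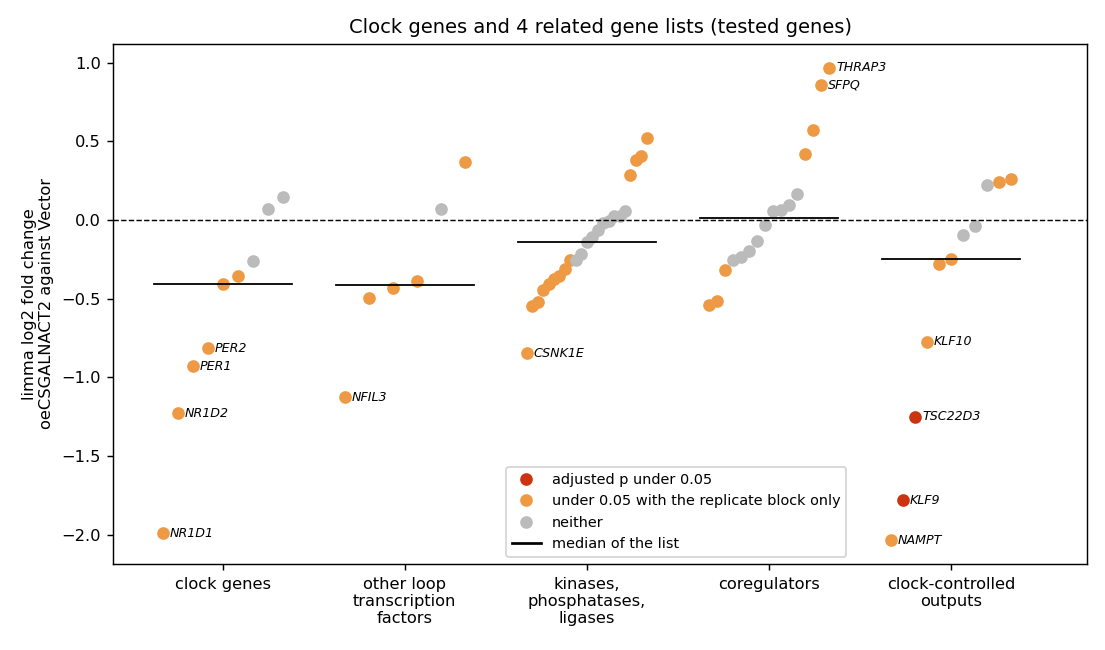
Limma log2 fold change (oeCSGALNACT2 against Vector) of the tested clock genes and of the tested genes of 4 related lists, 1 point a gene, with the list median as a line. KLF9 and TSC22D3 (red) passed without the block, orange genes passed with the replicate block only, and THRAP3 and SFPQ lie highest.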

How the data were processed

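HEY cell RNA went through a SMARTER mRNA library kit and was sequenced at Novogene. Which aligner and counter were used is not given in the sources used here. Deposited by the authors were FPKM values, scaled by gene length and library size, and a table of raw counts, of which the copy used here holds 1310 genes. Their table of group means was not used. The submitters' processing notes name the build mm10, but all 58735 genes lie at the position of GENCODE 29 on GRCh38. Because the counts cover few genes, genes were tested on FPKM with limma 3.58.1 in R 4.3.3 (trend, pseudocount of 1 FPKM, minimum mean of 1 FPKM). Reads were recovered from FPKM and gene length with a library constant. Of values above 0, 100% came out whole to within 0.01 of a read. The reads equalled the counts of all 1310 genes, and were tested with edgeR 4.0.16 and DESeq2 1.42.0.

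For each gene the deviation of a library from its group mean was taken. Libraries that share a number had Pearson's r of 0.810, 0.631 and 0.686 across genes (numbers 1, 2 and 3), so the replicate numbers were taken to pair the libraries. Replicate 3 of Vector also correlated with replicate 2 of oeCSGALNACT2 (0.682), and replicate 2 of Vector with replicate 3 of oeCSGALNACT2 (0.590). These values set number 1 apart but do not tell how numbers 2 and 3 pair. On simulated data, limma of 11513 genes recovered 0% of 2-fold and 45.8% of 4-fold changes, and 10.2% of its 49 calls were unchanged genes. With the block 19.8% of 4-fold changes were recovered and 24% of calls were unchanged genes, and for DESeq2 on 26297 genes these were 87% and 19.8%. EdgeR on 14264 genes recovered 1.02% of 2-fold and 64.6% of 4-fold changes, and 5.97% of its calls were unchanged genes. The simulated reads held no shift shared by libraries of the same number, so they cannot rate the block on the real libraries. Their spread came from a fit by group alone, in which the difference of replicate 1 counts as independent noise. The shares for the tests without the block may therefore not hold for the real libraries either. The clock genes, the lists and the tests were chosen with earlier results of these data known. The genes named in the lists are those that passed and up to 4 with the smallest p. A gene of the lists is not reported here. Alternatives were a pseudocount of 0.1, no filter, median-centred libraries, the block, the count tests, each library left out, and replicates 2 and 3 alone. Promoters came from the RefSeq table of GRCh38.p14, in which all 10 genes had a window, ARNTL under the name BMAL1. Intervals are those of limma at 95%.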

Additional observations from a re-analysis of the deposited data

How the results depend on the processing

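None of the 9 clock genes tested in limma turned its direction under any alternative that kept all libraries or replicates 2 and 3. PER3, below the filter, had values only in limma without a filter and in the count tests, all below 0. Of the 9, CLOCK alone did so with a library left out, at -0.0093 without Vector replicate 3 and -0.0135 without oeCSGALNACT2 replicate 1, with adjusted p of 0.988 and 0.965 from limma. With the replicate block, limma called PER1 (log2 fold change -0.93), PER2 (-0.82), CRY1 (-0.35), ARNTL (-0.41), NR1D1 (-1.99) and NR1D2 (-1.23), the fold changes of the fit without it. EdgeR with the block called the same 6, at -1.80, -1.31, -0.36, -0.53, -2.12 and -1.23. Replicates 2 and 3 alone gave the same 6 calls in limma, at -1.07, -0.75, -0.43, -0.43, -2.03 and -1.21. DESeq2 called PER1 (-1.84), NR1D1 (-2.16) and NR1D2 (-1.27), and edgeR without a filter called NR1D1 (-2.18) and NR1D2 (-1.29). PER3 had -0.13 in edgeR, -0.19 without a filter, -0.14 with the block and -0.17 in DESeq2, whose scale has no pseudocount. The cause of the other differences was not tested.

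Called clock genes numbered 0 in limma, 6 with the block in limma and in edgeR, 6 in replicates 2 and 3 alone, 3 in DESeq2 and 2 in edgeR without a filter. The other loop factors numbered 5 with the block in limma, 7 with it in edgeR, 4 in replicates 2 and 3, 2 in DESeq2 and 1 in edgeR without a filter. For the kinases, phosphatases and ligases these counts were 13, 13 and 11 with the block in limma, with it in edgeR, and in replicates 2 and 3. For the coregulators they were 7, 9 and 6, with 2 in DESeq2. The outputs numbered 8 and 8 with the block, 6 in replicates 2 and 3 and 1 in limma with no filter. Limma tested 9 clock genes, 6 other loop factors, 23 kinases, phosphatases and ligases, 16 coregulators and 11 outputs. EdgeR with the block tested 10, 9, 24, 18 and 11, and DESeq2 tested 10, 10, 24, 18 and 11. Over all genes, 155 of 11479 were called in limma, 31 with no filter, 365 of 28102 in edgeR without a filter and 731 of 16114 in DESeq2. With the block 5017 of 11479 (43.7%) were called in limma and 6058 of 14309 in edgeR, and 4863 of 11442 in replicates 2 and 3. Of the 9 clock genes, 9 did not overlap in replicates 2 and 3 (7 lower and 2 higher), where 74.2% of all tested genes did not.

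Without 1 library the log2 fold change ranged from -2.36 to -1.67 for NR1D1, -1.47 to -0.97 for NR1D2, -1.23 to -0.77 for PER1, -0.98 to -0.59 for PER2, -0.52 to -0.26 for CRY1, -0.51 to -0.09 for CRY2, -0.43 to -0.37 for ARNTL, -0.01 to 0.18 for CLOCK and 0.01 to 0.28 for BHLHE40, and no clock gene passed (adjusted p of 0.059 to 0.988 from limma). The count of outputs called ranged from 0 to 3, that of all genes from 5 to 170, and that of clock genes without overlap from 5 to 7. The share of all tested genes without overlap was then 25.9% to 55.4%, and the counts of 7 came without Vector replicate 1 (42.3% of all genes) and without oeCSGALNACT2 replicate 1 (55.4%).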

Other observations

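ARNTL2, the paralog of ARNTL, was the more abundant of the pair in HEY cells. It had 30.2, 17.0 and 15.5 FPKM in Vector and 32.3, 16.5 and 17.5 FPKM in oeCSGALNACT2 replicates 1, 2 and 3 (adjusted p = 0.951 from limma), so that replicate 1 was highest in each group and the groups overlapped. The ratio of ARNTL2 to ARNTL was 5.05 to 9.78 in Vector and 7.50 to 14.7 in oeCSGALNACT2 libraries, also with overlap.

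Several genes of the lists were too low for limma. DBP, a PAR bZIP activator at D-boxes, had 0.0372, 0.406 and 0.307 FPKM in Vector and 0.122, 0.162 and 0.109 FPKM in oeCSGALNACT2 replicates 1, 2 and 3. CIART, a repressor of the CLOCK and ARNTL dimer, ranged from 0.0438 to 0.164 FPKM in Vector and from 0 to 0.501 FPKM in oeCSGALNACT2 libraries. RORA, an activator at ROR elements, had 0.974, 0.732 and 0.617 FPKM in Vector and 0.703, 0.362 and 0.327 FPKM in oeCSGALNACT2 replicates 1, 2 and 3, with overlap through oeCSGALNACT2 replicate 1. None of DBP, CIART and RORA passed in DESeq2 (adjusted p of 0.659, 0.883 and 0.374). RBM4, an RNA-binding regulator of PER1 translation, was higher without overlap, at 0.846 to 1.54 against 0.681 to 0.841 FPKM (adjusted p = 0.403 from DESeq2).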
